A study of Homo sapiens with 12 samples.

Results

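The genes described here build, bind or cut the extracellular matrix: laminins, collagens, integrins, thrombospondins, matrix metalloproteinases (MMPs), ADAM and ADAMTS proteases, their inhibitors of the TIMP family, and FN1, TNC, SPARC, LOX and LOXL2. The rule that takes them reads gene symbols alone. Of the 5308 genes found in any of the 3 deposited tables, 40 fit. In the GENCODE release 29 annotation 168 protein-coding genes carry such symbols, and the other 128, FN1 and SPARC among them, are in no table and were not analysed here. The symbol rule also takes in proteins outside the matrix. ITGB1BP1 is a cytoplasmic protein that binds the tail of the integrin beta-1 subunit, ITGBL1 is a secreted protein that resembles integrin beta subunits, and ADAM23 has no protease activity.

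Epithelial cells rest on a basement membrane, a sheet of laminins, collagens and proteoglycans. Integrins are receptors of an alpha and a beta subunit that span the plasma membrane and link this sheet to the cytoskeleton. In hemidesmosomes, the anchoring junctions of epithelia, a laminin that holds the LAMA3 and LAMB3 chains is bound from outside the cell, and COL17A1 spans the membrane. Proteases of the MMP, ADAM and ADAMTS families cut matrix proteins or release proteins from the cell surface, and TIMPs inhibit them. In cholangiocarcinoma, a cancer of the bile ducts, matrix remodelling accompanies invasion.

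The cells were KKU-213A, a line from a human cholangiocarcinoma with both papillary and non-papillary parts, and poly(A) RNA was sequenced from 4 groups of 3 libraries. All cells grew in low-glucose DMEM with fetal bovine serum. Control cells received nothing else, and lactic acidosis cells were adapted stepwise to medium at pH 6.7 that held 25 mM each of L-lactate and HEPES. Lactosis cells grew at pH 7.4 with 25 mM L-lactate, and acidosis cells at pH 6.5 with 25 mM HEPES, each treated group for at least 5 passages. Both acid media held HEPES, which the other media were not said to hold, so acid and buffer cannot be told apart, and the acid media differed in pH. The groups come from 1 cell line, and nothing says that the 3 libraries of a group were separate cultures, so p-values rest on the spread among these libraries, and that spread may be technical only.

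Each table sets 1 treated group against the same controls and holds only genes that the authors called different from control. A difference from control is therefore a condition for being listed, and the tests against control given here describe how far groups stood apart relative to library spread. They add no support to the authors' calls. The values are expression per gene length, scaled per library, and their unit (TPM or FPKM) is not given in the sources used here. Tests used limma on log2(value + 1) with Benjamini-Hochberg adjusted p under 0.05, a scale that understates the change of low genes. With 3 libraries against 3, a permutation test of a single gene cannot go below 0.10.

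Some libraries stood apart. Control replicate 1 was low for many members. Scaling weights fitted to the authors' group means gave this library 1.212, and the other controls 0.960 and 0.935. Rescaling by these weights shifts lactic acidosis by -0.11 (log2) relative to control, and it reversed no member. Among 12 striated muscle markers, the 7 in the lactosis table summed to 56 in lactosis replicate 2, 0.49 and 0.53 in the other lactosis libraries, and 0.66 to 1.5 in the controls. The 9 markers in the lactic acidosis table summed to 55.4 in replicate 2, 18.7 and 17 in the other libraries of that group, and 38.4 to 57.8 in the controls. They were 6 listed higher and 3 lower. ACTA1, skeletal muscle actin, stood at 19.65 in replicate 2 against 0.43 and 0.56, and did not pass limma (adjusted p = 0.223). Only the 3 lower ones passed: TNNI2, MB and TNNT3 (limma adjusted p = 0.00054, 0.00125 and 0.00739). TNNI2 read 26.23, 35.37 and 40.98 in control and 12.96, 14.87 and 12.37 in lactic acidosis. No muscle marker was in the acidosis table. The part of these signals in the results was not tested. Without lactic acidosis replicate 2, 28 of the 33 members in that table passed against control, against 2624 of all 4279 genes. Without lactosis replicate 2, 21 of 26 did, against 1764 of 3087. Of 10 bile duct and epithelial markers, 4 were in the lactic acidosis table, 2 in the lactosis table and 1 in the acidosis table. KRT19, a bile duct keratin, stood at 2798.71, 4154.74 and 4419.27 in the controls and at 2596.21 to 3066.95 in lactic acidosis, and did not pass (limma adjusted p = 0.0900). In that table SOX9, a duct transcription factor (log2 difference 1.53, adjusted p = 0.00183), and CDH1, E-cadherin (0.41, adjusted p = 0.0288), rose, and MUC1, a mucin, fell (-1.14, adjusted p = 0.000449). In lactosis both listed markers were lower: MUC1 passed (-0.72, limma adjusted p = 0.00630) and KRT19 did not (-0.40, 0.0652). In acidosis CDH1 was listed lower, opposite to lactic acidosis, and did not pass (-0.36, limma adjusted p = 0.0878). Of 8 fibroblast and stellate cell markers, 1 was listed in each table: VIM was 3.07 to 4.4 in control, 8.03 to 11.2 in lactic acidosis and 5.57 to 6.99 in acidosis, and in lactosis it was DES, which is also a muscle gene, at 0, 6.63 and 0. Blood and endothelial cells gave 1 listed marker each, CD68 in lactic acidosis and PECAM1 in acidosis. In bulk RNA, fewer cells of a type and less RNA per cell cannot be told apart.

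In lactic acidosis most of the listed matrix, integrin and adhesion genes were higher than in control, while all 4 listed MMPs were lower. Of the 33 members in this table, 27 were higher and 6 lower, a share of 81.8% higher against 58.9% of all 4279 listed genes, of which 41.1% were lower. By the authors' deposited table, 21 members differed at least 2-fold, against 26.2% of listed genes. Of them 16 were at least 2-fold higher, against 10.5% of listed genes, and 5 were at least 2-fold lower, against 15.7%. All 33 members passed the limma test and none overlapped control, against 86.1% and 90.2% of listed genes. The median log2 fold change of the deposited table was 0.98 over the members and 0.37 over all genes listed.

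In lactosis 26 members were listed, 19 higher and 7 lower, and 59.3% of all 3087 listed genes were higher and 40.7% lower. Of these members 24 passed, against 77.7% of listed genes, and 24 did not overlap control, against 84.0%. At least 2-fold differences were found for 9 members, against 20.9% of listed genes. In acidosis 9 members were listed, 5 higher and 4 lower, and 61.1% of 1721 listed genes were higher and 38.9% lower. There 7 passed, against 60.0%, 7 did not overlap control, against 75.5%, and 1 reached 2-fold, against 12.5%.

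Across tables, 5 members were listed in all 3, among them ADAM8, ITGAE, ITGB1BP1 and ITGB5, each higher in every treated group. Another 15 were shared by lactic acidosis and lactosis alone, 12 were in lactic acidosis alone and 4 in lactosis alone. COL16A1 was shared by lactic acidosis and acidosis, LAMA5 and LOX by lactosis and acidosis, and MMP14 was listed in acidosis alone. No member was listed in opposite directions. The comparisons share their controls, so these patterns are not independent of each other.

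**Figure D1:**
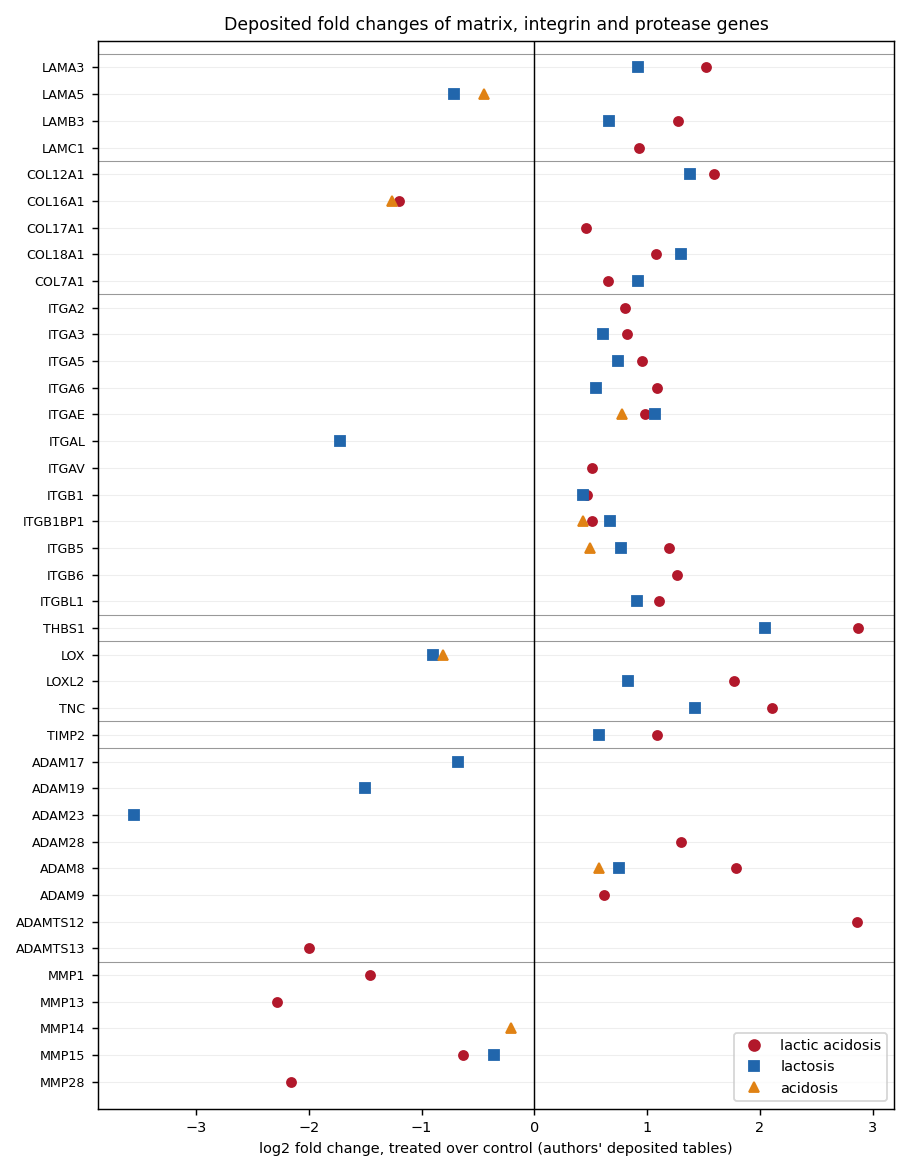
The log2 fold change of treated over control in the authors' deposited tables (horizontal axis) is drawn for the genes reported here (vertical axis), with 1 symbol per treatment in which the gene was listed and grey lines between gene families. Laminins, integrins and matricellular genes lie mostly right of 0, from 0.43 for ITGB1 in lactosis to 2.87 for THBS1 in lactic acidosis, and the MMPs lie left of 0.

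Chains of the hemidesmosome laminin rose in lactic acidosis and in lactosis. LAMA3, the alpha-3 chain (chromosome 18, 23689443 to 23956222), rose from 20.55, 29.33 and 26.71 in control to 71.06, 83.77 and 77.93 in lactic acidosis and 49.63, 38.90 and 58.91 in lactosis. LAMB3, the beta-3 chain (chromosome 1, 209614870 to 209652466), rose from 155.20, 152.24 and 142.30 to 401.25, 378.24 and 406.82 in lactic acidosis and 248.98, 227.13 and 260.13 in lactosis. Neither chain was in the acidosis table, so their level there was not analysed here. The limma differences in lactic acidosis were 1.58 (SE 0.16) for LAMA3 and 1.39 (SE 0.12) for LAMB3, with adjusted p = 0.000135 and 7.55e-05. LAMC1, the gamma-1 chain of many other laminins, was listed in lactic acidosis alone, at 33.16, 38.83 and 34.39 against 13.21, 19.10 and 19.88 in control. LAMA5, the alpha-5 chain of laminins common in mature epithelia, was the laminin listed lower. It read 43.50, 57.65 and 49.62 in control, 33.16, 25.60 and 35.47 in lactosis and 46.45, 34.16 and 31.32 in acidosis. The lactosis fall passed (log2 difference -0.67, limma adjusted p = 0.00964), while acidosis overlapped control and did not (adjusted p = 0.0535). It passed there without acidosis replicate 1 (adjusted p = 0.0395) or control replicate 1 (0.0186).

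Promoter windows were searched for the AP-1 motif, bound by dimers of Fos and Jun proteins and spelled TGACTCA or, on the other strand, TGAGTCA. The windows are RefSeq's for GRCh38.p14, from 250 bases before to 50 after a start site, and 30 of the 40 members matched at least 1. The motif occurs in windows of 3 members (10.0%), LAMA3, LAMB3 and ITGA5, against 1651 of 27305 genes (6.05%). LAMA3 and LAMB3 are shown because their chains pair in 1 laminin and both rose. LAMA3 holds the motif at positions -125 and -69 from a start site, LAMB3 at -67, and ITGA5 at -6. A match describes these letters and shows no binding. The 250 bases before the start are given 5′ to 3′ on the gene's strand with the motif in capitals, for LAMA3 at chr18:23872770-23873019 (plus strand) and LAMB3 at chr1:209651375-209651624 (minus strand).
LAMA3: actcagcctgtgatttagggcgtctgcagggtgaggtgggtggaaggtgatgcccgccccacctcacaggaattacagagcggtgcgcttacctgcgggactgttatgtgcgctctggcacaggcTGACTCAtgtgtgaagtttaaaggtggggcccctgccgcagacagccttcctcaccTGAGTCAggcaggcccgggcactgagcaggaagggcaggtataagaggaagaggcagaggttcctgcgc
LAMB3: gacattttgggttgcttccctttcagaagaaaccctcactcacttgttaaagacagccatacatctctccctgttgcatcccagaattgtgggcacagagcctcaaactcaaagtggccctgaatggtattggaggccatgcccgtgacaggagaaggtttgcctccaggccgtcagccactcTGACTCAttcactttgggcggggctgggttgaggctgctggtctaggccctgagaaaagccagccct

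Of the 5 collagens listed, 4 were higher and 1 lower in lactic acidosis. COL17A1, the membrane-spanning collagen of hemidesmosomes, read 55.44, 95.30 and 97.79 in control and 113.57, 128.73 and 121.26 in lactic acidosis. Its limma log2 difference of 0.59 (SE 0.21, adjusted p = 0.0293) did not pass without any 1 of the 3 lactic acidosis libraries (adjusted p 0.0579 to 0.0925). COL7A1, which forms the anchoring fibrils below basement membranes, and COL18A1, a basement membrane collagen that yields endostatin, stood between 0.70 and 4.54 in every library. COL7A1 passed in lactic acidosis (0.53, limma adjusted p = 0.0221) but not without replicate 1 (0.0878) or 3 (0.0555) of that group, and in lactosis (0.68) but not without lactosis replicate 3 (0.0655). COL18A1 read 0.70, 1.15 and 0.96 in control, 2.53, 1.92 and 1.97 in lactic acidosis and 2.10, 2.66 and 2.32 in lactosis. COL12A1, a collagen that coats fibrils, rose from 1.12, 1.76 and 2.09 to 4.35, 5.89 and 5.21 in lactic acidosis and 4.45, 3.46 and 5.80 in lactosis. COL16A1, another fibril-associated collagen, was lower in both acid groups. It read 0.98, 0.79 and 0.83 in control, 0.49, 0.28 and 0.46 in lactic acidosis and 0.35, 0.30 and 0.45 in acidosis. Its limma differences were -0.41 and -0.45 (adjusted p = 0.0185 and 0.0271), at levels where few reads may stand behind a value. Neither passed with a pseudocount of 5 (adjusted p = 0.177 and 0.249). The lactic acidosis call was lost without replicate 2 (0.0789) or 3 (0.0540) of that group, and the acidosis call without any 1 acidosis library (0.0691 to 0.129) or control replicate 2 (0.0693).

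Of 30 integrin symbols 12 were listed, ITGB1BP1 and ITGBL1 among them. In lactic acidosis 11 were higher and none lower. The laminin receptors carry ITGA3 or ITGA6 as their alpha subunit and often ITGB1 as their beta subunit. ITGA3 read 306.89, 466.44 and 449.82 in control, 757.87, 751.98 and 794.99 in lactic acidosis and 637.94, 554.65 and 704.97 in lactosis. ITGB1 read 364.60, 506.84 and 532.85, then 681.52, 751.07 and 654.52, then 639.49, 577.11 and 709.25 in the same groups. ITGA6 read 34.72, 53.04 and 57.70 in control, 104.64, 118.20 and 105.98 in lactic acidosis and 71.54, 58.16 and 85.90 in lactosis. All control libraries lay below all libraries of either treatment for these 3 genes. The limma differences in lactic acidosis were 0.94 (SE 0.18) for ITGA3, 1.19 (SE 0.19) for ITGA6 and 0.59 (SE 0.17) for ITGB1. In lactosis they were 0.65, 0.57 and 0.47, and each of these calls was lost without lactosis replicate 1 (adjusted p 0.0502 to 0.0955) or replicate 3 (0.0611 to 0.133). ITGA6 also lost its lactosis call without control replicate 1 (0.0539) or 2 (0.0543), and under a pseudocount of 0.1 (0.0539). The lactosis call of ITGB1 was also lost without control replicate 2 (0.0549) or lactosis replicate 2 (0.0508). ITGB1 lost its lactic acidosis call without replicate 2 of that group (0.0528).

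Receptors for collagen and fibronectin were higher as well. ITGA2, which binds collagen, was 17.44, 30.80 and 31.55 in control and 43.47, 57.84 and 45.80 in lactic acidosis. ITGA5, of the fibronectin receptor, was 3.53, 6.18 and 6.55 in control, 10.25, 11.21 and 11.87 in lactic acidosis and 8.85, 7.84 and 10.53 in lactosis. Its lactosis call was lost without lactosis replicate 1 (adjusted p = 0.0519) or 3 (0.0724). ITGAV, the shared partner of ITGB5 and ITGB6 in receptors for vitronectin and latent TGF-beta, was 15.60, 22.98 and 25.78 in control and 31.49, 36.07 and 29.55 in lactic acidosis, and did not pass without replicate 2 of that group (adjusted p = 0.0737). ITGB6, an epithelial subunit, varied widely in control, at 2.50, 6.90 and 11.92, and was 17.24, 19.08 and 15.42 in lactic acidosis. Its limma difference was 1.36 (SE 0.39), 0.85 without control replicate 1 and 1.79 without control replicate 3. ITGB5 was listed in all 3 tables: 16.84, 23.92 and 27.26 in control, 51.93, 57.18 and 56.61 in lactic acidosis, 40.02, 35.83 and 40.84 in lactosis and 35.01, 28.73 and 31.27 in acidosis. Its control libraries lay below all treated ones. The limma difference was 1.27 (SE 0.18, adjusted p = 0.000572) in lactic acidosis. It was 0.78 for lactosis and 0.49 for acidosis (adjusted p = 0.0382). The acidosis call was lost under a pseudocount of 0.1 (adjusted p = 0.0570), without control replicate 1 (0.0542) or 2 (0.0703), and without any 1 acidosis library (0.0777 to 0.128).

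The other integrin symbols lie outside the classical matrix receptors. ITGAE, the alpha subunit that binds E-cadherin on epithelia and is best known from T cells, read 2.72, 2.23 and 4.43 in control and between 5.02 and 7.22 in all 9 treated libraries. Its acidosis call was lost without acidosis replicate 1 (adjusted p = 0.0560) or control replicate 2 (0.0719). ITGB1BP1 read 47.12, 49.16 and 59.32 in control, 82.08, 80.62 and 77.18 in lactic acidosis, 82.08, 84.22 and 86.67 in lactosis and 73.15, 66.56 and 71.27 in acidosis. Both were higher in every treated library than in every control, and the acidosis call of ITGB1BP1 was lost without control replicate 2 (adjusted p = 0.111) or any 1 acidosis library (0.0914 to 0.114). For ITGB1BP1 33.1% of exon bases overlap exons of ASAP2 or others, and the counting is not said to use strand, so reads of the overlap cannot be told apart. The same holds for ITGBL1, with 70.5% of exon bases overlapped by FGF14 and AL160153.1 together. ITGBL1 read 8.13, 16.24 and 17.83 in control, 31.33, 28.22 and 28.27 in lactic acidosis and 24.35, 21.43 and 29.68 in lactosis, where it did not pass without lactosis replicate 3 (adjusted p = 0.0686). ITGAL, the alpha subunit of a leukocyte integrin, was listed lower in lactosis, at 0.15, 0.19 and 0.16 against 0.67, 0.53 and 0.47. It did not pass without lactosis replicate 1 (adjusted p = 0.0827) or 3 (0.0667) or control replicate 2 (0.0545), or under a pseudocount of 5 (0.262).

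Matricellular proteins are secreted into the matrix and signal to cells more than they hold tissue together. THBS1, thrombospondin 1 (ENSG00000137801.10, chromosome 15, 39581079 to 39599466), had the highest limma log2 difference of the members in lactic acidosis. It read 15.15, 82.45 and 180.14 in control, 618.28, 743.25 and 684.53 in lactic acidosis and 359.82, 318.24 and 415.43 in lactosis. The groups did not overlap, but the controls spread over more than 10-fold. The limma difference of 3.45 (SE 0.69, adjusted p = 0.00284) in lactic acidosis became 2.47 without control replicate 1 and 4.21 without control replicate 3. In lactosis 2.54 (SE 0.69, adjusted p = 0.0117) became 1.56 and 3.31. TNC, tenascin C, was low in control at 1.53, 1.03 and 0.80, and read 4.88, 5.67 and 5.85 in lactic acidosis and 3.17, 2.28 and 4.24 in lactosis. Its limma difference was 1.62 (SE 0.16, adjusted p = 0.000118) in lactic acidosis and 0.98 (SE 0.20, adjusted p = 0.00389) in lactosis.

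The lysyl oxidases, which crosslink collagen and elastin, were listed in opposite directions in lactosis. LOXL2 read 6.58, 18.24 and 20.51 in control, 51.43, 55.29 and 54.14 in lactic acidosis and 27.03, 22.97 and 29.23 in lactosis. Its limma difference was 1.90 (SE 0.34, adjusted p = 0.00163) in lactic acidosis and 0.90 (SE 0.34, adjusted p = 0.0378) in lactosis. Without control replicate 1 these were 1.42 and 0.42. The lactosis call was lost without any 1 lactosis library (adjusted p 0.0583 to 0.101), and under a pseudocount of 0.1 (0.0596). LOX read 2.81, 3.46 and 2.44 in control, 1.60, 1.37 and 1.88 in lactosis and 1.76, 1.78 and 1.47 in acidosis. It fell by 0.57 (SE 0.15) and 0.54 (SE 0.17) on the log2 scale, with limma adjusted p = 0.0109 and 0.0162. The acidosis call was lost without acidosis replicate 2 (adjusted p = 0.0614) or 3 (0.0812) or control replicate 2 (0.0866), and under a pseudocount of 5 (0.0709).

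**Figure D2:**
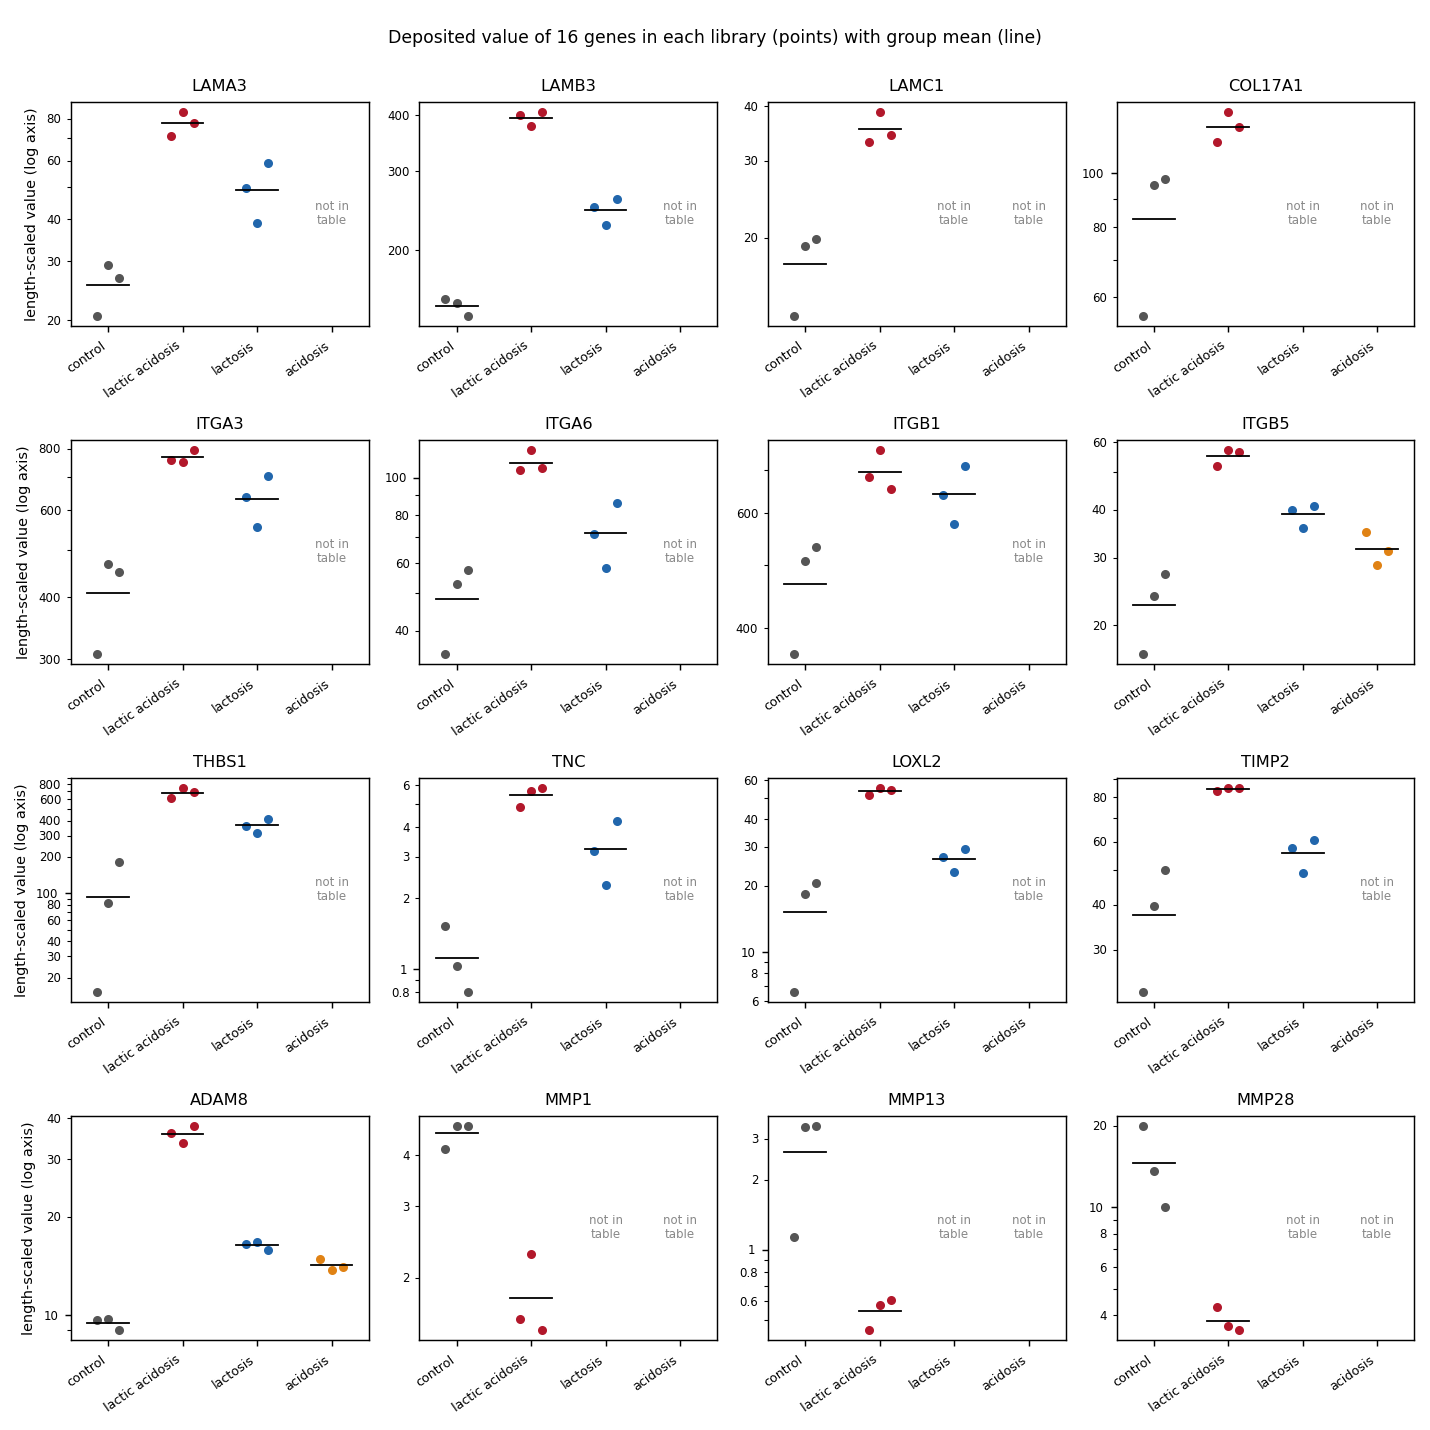
Each panel plots the deposited length-scaled value of 1 gene (vertical log axis) in the 3 libraries of each group (points) with the group mean (line), and "not in table" marks groups for which the gene was not listed. LAMB3 stands between 378.24 and 406.82 in lactic acidosis and between 142.30 and 155.20 in control, and MMP1, MMP13 and MMP28 lie lower in lactic acidosis than in control.

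Every MMP listed was lower in the treated cells. MMP1 and MMP13 are secreted collagenases, and their genes lie 144.8 kb apart on chromosome 11. In lactic acidosis MMP1 read 1.59, 2.29 and 1.49 against 4.14, 4.71 and 4.70, and MMP13 read 0.45, 0.58 and 0.61 against 1.13, 3.38 and 3.41. MMP28, epilysin, an MMP of epithelia, read 4.29, 3.65 and 3.52 against 19.94, 13.57 and 10.03. No library of the treated group reached a control library for these 3 genes. The limma log2 differences were -0.99 (SE 0.15) for MMP1, -1.16 (SE 0.26) for MMP13 and -1.64 (SE 0.22) for MMP28, with adjusted p = 0.000731, 0.00458 and 0.000438. MMP13 moved to -1.51 without control replicate 1. MMP15, anchored in the plasma membrane, read 18.02, 21.26 and 20.36 in control, 13.39, 13.14 and 15.09 in lactic acidosis and 17.02, 13.99 and 16.53 in lactosis. It passed in lactic acidosis (-0.49, limma adjusted p = 0.00975) and not in lactosis (-0.31, adjusted p = 0.0664), where it passed without control replicate 1 (0.0143). MMP14, another membrane-anchored enzyme and the most abundant MMP listed, read 122.17, 147.84 and 144.73 in control and 134.15, 118.82 and 110.05 in acidosis, which overlap. Its limma difference was -0.19 (adjusted p = 0.270), so the authors' call of MMP14 did not pass here.

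TIMP2, which inhibits MMPs and with MMP14 takes part in activating MMP2, read 22.82, 39.77 and 50.06 in control and 83.27, 84.75 and 84.54 in lactic acidosis. Lactosis libraries, at 57.48, 48.96 and 60.81, overlapped control. The limma difference was 1.21 (SE 0.25, adjusted p = 0.00298) in lactic acidosis and 0.62 (SE 0.25, adjusted p = 0.0474) in lactosis. The lactosis call was lost without control replicate 1 (adjusted p = 0.0582) or 2 (0.0684), any 1 lactosis library (0.0634 to 0.126), and under pseudocounts of 0.1 (0.0678) and 5 (0.0507).

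The ADAM and ADAMTS members had no common direction. ADAM8, a membrane protease that sheds cell-surface proteins (ENSG00000151651.15, chromosome 10, 133262403 to 133276868), read 9.7, 9.73 and 9.01 in control and 36.12, 33.57 and 37.85 in lactic acidosis. It read 16.55, 16.74 and 15.82 in lactosis and 14.89, 13.73 and 14.09 in acidosis. The libraries of each group lay close together and no groups overlapped. The limma difference from control was 1.81 (SE 0.13, adjusted p = 3.62e-05) in lactic acidosis. It was 0.73 (SE 0.13, adjusted p = 0.00193) in lactosis and 0.54 (SE 0.16, adjusted p = 0.0126) in acidosis. The acidosis call was lost without acidosis replicate 2 (adjusted p = 0.0591) or 3 (0.0526). ADAM9, another membrane protease, was 55.03, 85.13 and 94.24 in control and 123.39, 137.90 and 120.70 in lactic acidosis. ADAMTS12, a secreted protease, was close to the floor in control at 0.05, 0.16 and 0.14, and read 0.89, 1.12 and 0.83 in lactic acidosis. Its fold change in the authors' deposited table was 7.27 and its limma log2 difference 0.80 (SE 0.13, adjusted p = 0.00110). ADAM28 was 0.50, 0.92 and 1.49 in control and 2.92, 2.91 and 1.87 in lactic acidosis. ADAMTS13, which cuts von Willebrand factor, was 0.64, 0.87 and 0.35 in control and 0.10, 0.14 and 0.32 in lactic acidosis. Its call was lost without lactic acidosis replicate 1 (adjusted p = 0.101) or 2 (0.0875) or control replicate 2 (0.110), and under a pseudocount of 5 (0.206).

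In lactosis 3 further ADAM genes were listed lower. ADAM17, the sheddase of TNF and of EGF receptor ligands, read 34.83, 39.38 and 33.62 in control and 23.44, 18.71 and 27.36 in lactosis. Its limma difference was -0.62 (SE 0.16, adjusted p = 0.0106). ADAM19, a sheddase of neuregulin, read 2.41, 3.49 and 4.49 against 1.40, 0.89 and 1.41, a difference of -0.98 (SE 0.20, limma adjusted p = 0.00346). ADAM23 was at 0.37, 0.21 and 0.04 in control and at 0.04 in 1 lactosis library and listed at 0 in the others, and did not pass (adjusted p = 0.136). For these values near the floor the call depended on the pseudocount: it passed with 0.1 (limma adjusted p = 0.0264).

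To ask what acid, with its buffer, added to lactate, lactic acidosis was compared with lactosis directly over the 2344 genes in both tables. Control values do not enter the contrast, but they chose its genes, since each gene had to be called different from control in both groups. This also holds for the contrasts with acidosis below. Laminin chains, matricellular genes, LOXL2, ADAM8 and TIMP2 were higher in lactic acidosis, and listed collagens gave no call. Of the 20 members tested, 10 were higher and none lower, against 15.7% higher and 20.4% called of all genes. The groups did not overlap for 11 of 20 members, against 40.9% of all genes. The median log2 difference was 0.39 over members and 0.11 over all genes. ADAM8 differed by 1.08 (SE 0.08, limma adjusted p = 1.18e-05), LOXL2 by 1.00 (SE 0.10, adjusted p = 6.91e-05) and THBS1 by 0.91 (SE 0.11, adjusted p = 0.000361). LAMB3 (0.69), LAMA3 (0.66), TNC (0.64), ITGA6 (0.62), TIMP2 (0.59) and ITGB5 (0.50) also passed. TNC did not pass without lactic acidosis replicate 2 (adjusted p = 0.0604) or 3 (0.0574). ITGA3 differed by 0.29 (SE 0.10, adjusted p = 0.0608), without overlap, and passed without lactosis replicate 3 (adjusted p = 0.0133). ITGA5 (0.27) and ITGBL1 (0.22) also passed only without that library among those left out (adjusted p = 0.0137 and 0.0212). ITGB1 (0.12, SE 0.10), COL12A1 (0.16, SE 0.15), COL18A1 (-0.10, SE 0.10), COL7A1 (-0.15, SE 0.13) and MMP15 (-0.18, SE 0.10) did not pass.

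**Figure D3:**
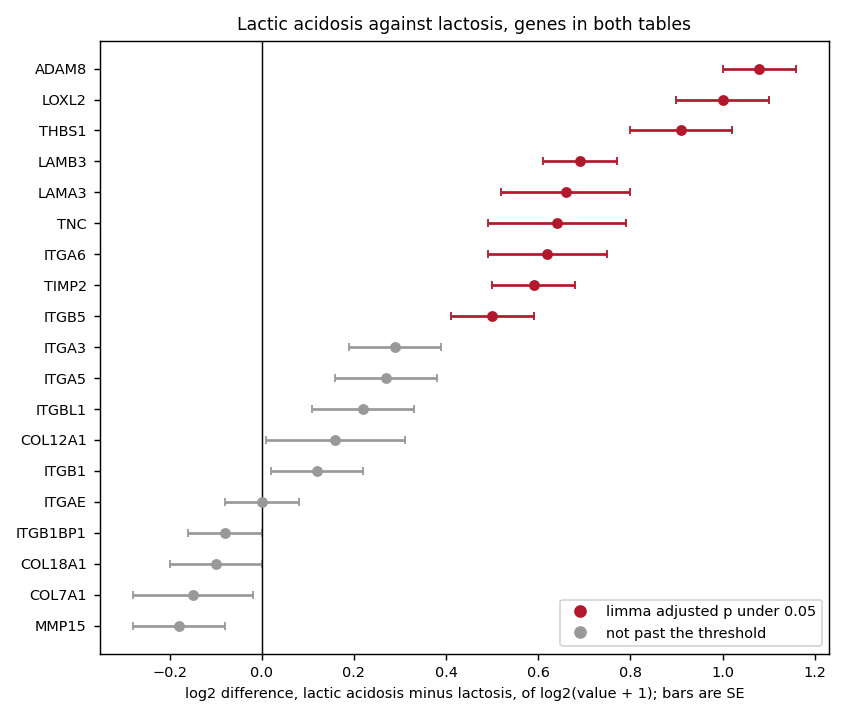
The difference of mean log2(value + 1), lactic acidosis minus lactosis (horizontal axis), is drawn for genes in both tables (vertical axis) with bars of 1 SE, and colour marks a limma adjusted p under 0.05. The coloured genes run from 0.50 for ITGB5 to 1.08 for ADAM8, and the other 10 lie between -0.18 and 0.29.

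Lactic acidosis against acidosis asks what lactate added in acid medium, although pH differed between these groups. Of 6 members tested, 4 were higher and none lower, against 48.8% of 1304 genes called and 38.7% higher. The groups did not overlap for 5 of 6, against 58.2%. ADAM8 differed by 1.27 (SE 0.08, limma adjusted p = 2.85e-06), ITGB5 by 0.79 (SE 0.09, adjusted p = 0.000125) and ITGAE by 0.26 (SE 0.08, adjusted p = 0.0184). The ITGAE call was lost without lactic acidosis replicate 2 (adjusted p = 0.0622) or 3 (0.0599), or acidosis replicate 2 (0.0927), and with library weights (0.0662). ITGB1BP1 differed by 0.18 (SE 0.07, adjusted p = 0.0623) and COL16A1 by 0.04 (SE 0.09, adjusted p = 0.710). ITGB1BP1 passed without acidosis replicate 1 (adjusted p = 0.0290). Lactosis against acidosis gave 3 of 7 members, all higher in lactosis, against 23.9% of 1173 genes called and 16.4% higher, and 5 of 7 did not overlap, against 39.7%. Among them were ITGAE (0.26, SE 0.08, limma adjusted p = 0.0463) and ITGB1BP1 (0.26, SE 0.07, adjusted p = 0.0310). Both calls were lost without lactosis replicate 1 (adjusted p = 0.130 and 0.0852) or 3 (0.144 and 0.0977), or acidosis replicate 2 (0.184 and 0.144) or 3 (0.103 and 0.0777). ITGB1BP1 also lost its call without lactosis replicate 2 (0.0596), and ITGAE under a pseudocount of 5 (0.0748). ITGB5 (0.29, adjusted p = 0.0569) passed without lactosis replicate 2 (0.0423) or acidosis replicate 1 (0.0190).

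For the 5 members in all 3 tables, the lactate difference in acid medium (lactic acidosis minus acidosis) was set against that in medium with no acid named (lactosis minus control) in 1 model of 12 libraries. The labels give no pH for the control medium. Only genes called different from control in every treatment entered, and control is itself a term of this difference. Its median was -0.16 over all 1042 genes. The lactate difference of ADAM8 was larger in acid medium, by 0.54 (SE 0.14, limma adjusted p = 0.0105). That of ITGAE was smaller, by -0.67 (SE 0.22, adjusted p = 0.0281), and so was that of ITGB1BP1, by -0.51 (SE 0.16, adjusted p = 0.0208). ITGB5 (0.01, SE 0.21) did not pass. These are 3 of 5 members against 35.9% of 1042 genes called. ADAM8 alone passed without control replicate 2, lactic acidosis replicate 3 or acidosis replicate 3, each left out in turn.

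Within each library, subunit pairs, and 1 inhibitor with a protease, were compared as ratios of length-scaled values. This describes pairs chosen after their values were seen. LAMA3 over LAMB3 overlapped among all 3 groups, between 0.132 and 0.226. ITGA3 over ITGB1 was 0.842, 0.92 and 0.844 in control, 1.11, 1 and 1.21 in lactic acidosis and 0.998, 0.961 and 0.994 in lactosis. For ITGA3 all treated libraries lay above the controls. ITGA6 over ITGB1 was 0.0952, 0.105 and 0.108 in control, 0.154, 0.157 and 0.162 in lactic acidosis and 0.112, 0.101 and 0.121 in lactosis. ITGAV over ITGB1 overlapped, at 0.0428, 0.0453 and 0.0484 in control and 0.0462, 0.048 and 0.0451 in lactic acidosis. ITGB5 over ITGAV was 1.08, 1.04 and 1.06 in control and 1.65, 1.59 and 1.92 in lactic acidosis. TIMP2 over MMP15 was 1.27, 1.87 and 2.46 in control, 6.22, 6.45 and 5.6 in lactic acidosis and 3.38, 3.5 and 3.68 in lactosis. Scaling of a whole library cancels in such ratios, and those of ITGA3 and TIMP2 kept both treated groups above control. For TIMP2 over MMP15 that direction was given beforehand, since TIMP2 was listed higher and MMP15 lower in both groups.

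**Figure D4:**
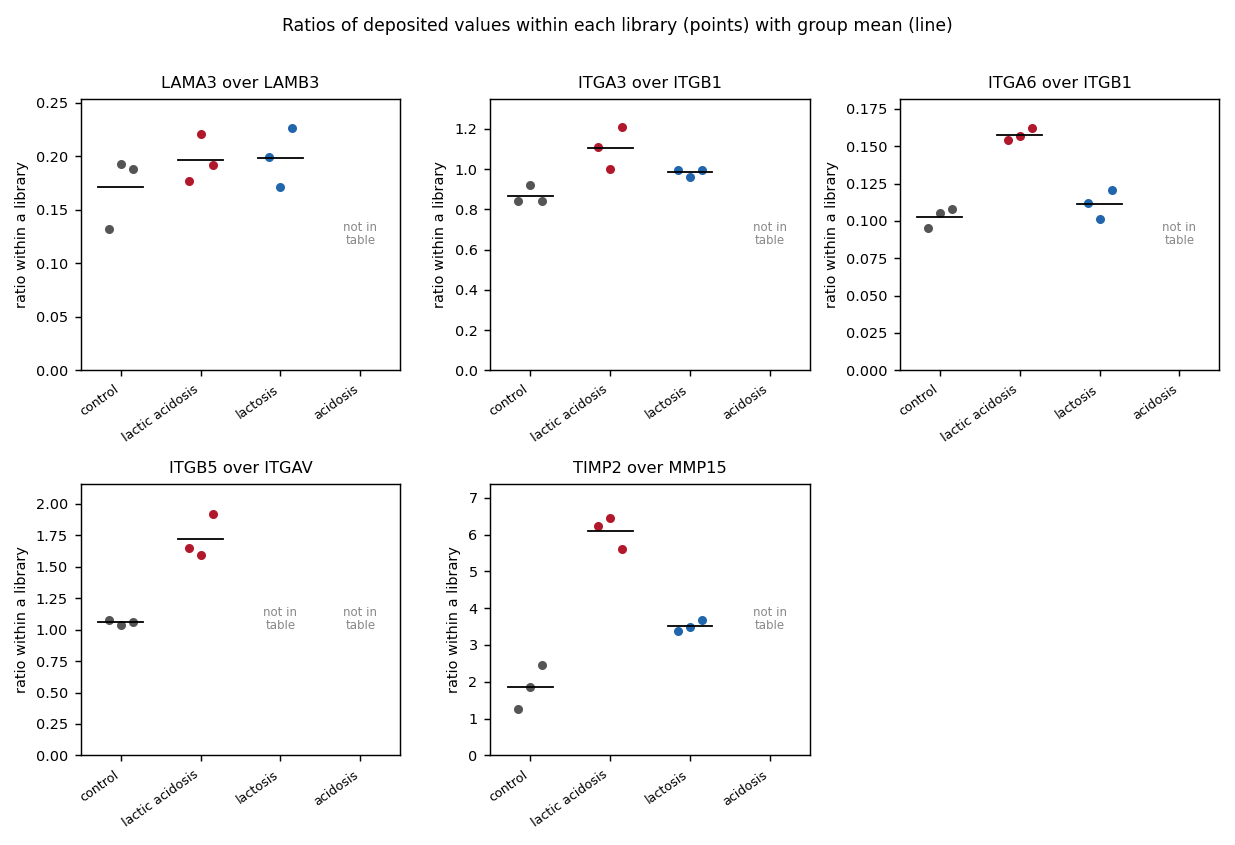
Each panel plots the ratio of 2 genes' deposited values within a library (vertical axis from 0, no unit) for the 3 libraries of each group (points) with the group mean (line). ITGA6 over ITGB1 is 0.154 to 0.162 in lactic acidosis against 0.0952 to 0.108 in control, while LAMA3 over LAMB3 overlaps among the groups.

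Genes that work with these members were taken from lists of pathway genes. Their counts are to be read against the shares of all listed genes that passed: 86.1% for lactic acidosis, 77.7% for lactosis and 60.0% for acidosis. Of the genes that passed, 64.3%, 59.8% and 59.7% were higher. Among all listed genes, the shares listed higher were 58.9%, 59.3% and 61.1%. Of 20 basement membrane linkers and proteoglycans, 8 were listed higher and 1 lower in lactic acidosis, of which 7 and 1 passed the limma test. AGRN, agrin, which ties laminin to cell-surface receptors, rose in all 3 treatments. It read 50.73, 54.19 and 53.31 in control, 133.54, 130.01 and 146.56 in lactic acidosis, 107.88, 91.16 and 108.90 in lactosis and 87.66, 76.72 and 71.03 in acidosis. All 5 listed in lactosis and the 1 in acidosis passed. Of 20 collagen-modifying and crosslinking genes, all 7 listed in lactic acidosis were higher and passed. In lactosis 4 were listed higher and 1 lower, of which 3 and 1 passed. In acidosis all 3 listed were higher, and 2 passed. P3H2, a collagen prolyl hydroxylase, read 6.25, 10.82 and 11.85 in control, 20.28, 20.48 and 20.47 in lactic acidosis and 21.36, 20.27 and 25.99 in lactosis. P4HA1, a subunit of another prolyl hydroxylase, fell in lactosis from 43.64, 83.20 and 100.88 to 32.18, 27.31 and 32.41.

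Of 24 integrin adaptors and matrix receptors, 11 were listed in lactic acidosis, 8 higher and 3 lower, of which 8 and 1 passed. In lactosis all 6 listed were higher, and 2 passed. In acidosis 2 were listed higher and 2 lower, of which 1 and 0 passed. TNS4, a focal adhesion tensin that binds integrin beta tails, read 10.11, 33.93 and 49.49 in control, 138.62, 168.23 and 156.98 in lactic acidosis and 71.16, 57.63 and 77.26 in lactosis. Among 12 other matricellular genes, 3 were listed higher and 2 lower in lactic acidosis, of which 3 and 1 passed. In lactosis 2 were listed higher and 1 lower, of which 1 and 1 passed. CYR61, a secreted integrin ligand, read 77.83, 173.38 and 347.78 in control. It was 1003.34, 984.62 and 1000.48 in lactic acidosis and 577.07, 562.62 and 674.54 in lactosis. Of 17 protease inhibitors and other degrading enzymes, all 5 listed in lactic acidosis were higher, and 4 passed. In lactosis 4 were listed higher and 1 lower, of which 3 and 0 passed. In acidosis all 4 listed were higher, and 2 passed. CST6, an inhibitor of cysteine proteases, was higher in every treated library (104.38 to 155.52) than in control (59.46 to 73.31). Of 16 elastic fibre and microfibril genes, 1 rose and 1 fell in lactic acidosis, and 1 fell in lactosis.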

How the data were processed

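The 12 libraries, 3 per group, all came from KKU-213A. Poly(A) RNA was selected and read as single ends of 75 nt, per the labels' protocols, and STAR and hg38 are named by the submitters' processing notes. The counting tool and annotation are not given in the sources used here. The deposited per-library values are a signal scaled by gene length and library by the authors. Fold changes were deposited as a ratio with control on top, and were inverted. The deposited posterior probability of equal expression was under 0.05 for every listed gene. Column names are those of EBSeq. No totals are given, so depth is unknown and no counting interval was set. Control values were identical in the 3 tables (largest difference 0), so libraries were compared across tables.

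limma 3.58.1 in R 4.3.3 was fitted to log2(value + 1) with no filter, with p-values adjusted over all genes fitted: those of a table against control, those in both tables between treatments, and those in all 3 for the difference of lactate effects. The script was tested on simulated data. Alternatives were pseudocounts of 0.1 and 5, a mean value of at least 1, a replicate block, leaving out each library, library weights fitted to the deposited group means, and a deposited probability under 0.01. Gene positions and exon overlap are from GENCODE 29 on GRCh38, which matched all 40 members. Promoters are from RefSeq. Figures were drawn with Python 3.11.15 and matplotlib 3.10.9.

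The members and lists were chosen with earlier results of these data known. The rule for named genes took members in all 3 tables, the 4 highest and 4 lowest fold changes per table, members with opposite directions, and TNC, LOX and LOXL2. Other members, the genes of the pathway and marker lists given with values, and the ratios were chosen after their values were seen. A few members and list genes enter the counts and are not reported singly here.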

Additional observations from a re-analysis of the deposited data

Results flagged for a closer look

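For 3 genes the lactate difference in acid medium (lactic acidosis minus acidosis) departed from that in medium with no acid named (lactosis minus control) in a test of the difference itself. ADAM8 had the larger lactate difference in acid medium, by 0.54 on the log2(value + 1) scale (SE 0.14, limma adjusted p = 0.0105), and passed with each library left out in turn. ITGAE had the smaller one, by -0.67 (SE 0.22, limma adjusted p = 0.0281), and ITGB1BP1 as well, by -0.51 (SE 0.16, limma adjusted p = 0.0208). The call of ITGB1BP1 was lost without control replicate 2 (adjusted p = 0.0516), lactic acidosis replicate 3 (0.0539) or acidosis replicate 3 (0.0518). That of ITGAE was lost without these (0.0753, 0.0529 and 0.0559), without lactic acidosis replicate 1 (0.0647), lactosis replicate 1 (0.0536) or 3 (0.0605), or acidosis replicate 1 (0.0513). The ITGAE call was also lost under a pseudocount of 5 (0.0510). The acid groups differed in pH. Genes entered this test only if called different from control in every treatment, and control is a term of the difference. Its median over all 1042 genes was -0.16.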

How the results depend on the processing

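Among the members, 1164 alternative values kept their side of the threshold, 103 fell short of it, 19 newly passed it, and none reversed. Leaving out 1 library at a time, the members that passed numbered 28 to 33 in lactic acidosis, 15 to 24 in lactosis (15 without lactosis replicate 3) and 2 to 7 in acidosis against control. They numbered 9 to 13 for lactic acidosis against lactosis, 3 to 5 against acidosis, 1 to 4 for lactosis against acidosis and 1 to 3 for the difference of lactate effects. In acidosis 2 members passed without acidosis replicate 2, acidosis replicate 3 or control replicate 2, and 3 without acidosis replicate 1. Over all genes, calls ranged from 1423 to 2589 around 2398 in lactosis and from 425 to 1251 around 1033 in acidosis. They ranged from 259 to 663 around 479 for lactic acidosis against lactosis, from 131 to 335 around 280 for lactosis against acidosis and from 240 to 566 around 374 for the difference of lactate effects. With library weights, members passing were 33, 25 and 9 against control, 10, 3 and 4 between treatments and 3 for the difference of lactate effects. MMP14 (adjusted p = 0.0464), LAMA5 in acidosis (0.00664) and MMP15 in lactosis (0.00794) then passed. So did ITGB5 for lactosis against acidosis (0.0157), while ITGAE lost its call for lactic acidosis against acidosis (0.0662). Over all genes 1680 passed in acidosis and 734 for the difference of lactate effects. Weights moved the share of higher calls over all genes from 76.6% to 62.3% for lactic acidosis against lactosis, from 79.4% to 66.6% against acidosis and from 55.6% to 39.5% for the difference of lactate effects. Depth is unknown, so the reads behind genes near 0 cannot be given.

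Libraries with the same replicate number correlated between -0.39 and 0.22 in their deviations, and at most 2 of 3 treated libraries correlated best with their own number. With so few libraries, these correlations cannot show whether libraries of 1 number were handled together. ACTA1 was high in replicate 2 of both lactosis (28.35) and lactic acidosis (19.65). With a replicate block, 2 members passed in acidosis against control and 1 for lactosis against acidosis, and over all genes 656 passed in acidosis. In acidosis ADAM8 (adjusted p = 0.0507), ITGB5 (0.0752), ITGB1BP1 (0.102), COL16A1 (0.0963) and LOX (0.0501) lost their calls with the block, in lactosis ITGAL did (0.0670), and for lactosis against acidosis ITGAE (0.0731) and ITGB1BP1 (0.0777) did. The other counts with the block were 33, 23, 10, 4 and 3.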

Other observations

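Some members are close neighbours in the genome. ADAM17 and ITGB1BP1 lie 64.9 kb apart on chromosome 2. In lactosis ADAM17 was listed lower, at 23.44, 18.71 and 27.36 against 34.83, 39.38 and 33.62, and ITGB1BP1 higher, at 82.08, 84.22 and 86.67 against 47.12, 49.16 and 59.32. Neighbours MMP1 and MMP13 were both lower in lactic acidosis.

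Among abundant partners, SDC1, a cell-surface proteoglycan of epithelia, read 153.79, 212.25 and 231.56 in control, 319.26, 348.57 and 356.81 in lactic acidosis and 356.00, 309.01 and 358.39 in lactosis. CD151, a membrane protein that binds laminin-receptor integrins, read 188.80, 195.30 and 191.43 in control and 285.77, 293.37 and 312.51 in lactic acidosis. SPP1, osteopontin, an integrin ligand, was lower in lactic acidosis, at 1.24, 0.98 and 0.92 against 4.97, 3.75 and 2.95.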
